A study of Mus musculus with 4 samples.

Results

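The genes described here are 10 oocyte genes, chosen by name: the zona pellucida genes Zp1, Zp2 and Zp3, the oocyte growth factor genes Gdf9 and Bmp15, and the maternal-effect genes Ooep, Nlrp5, Padi6, Zar1 and Npm2. They are 10 of the 55401 gene identifiers in the deposited count tables, and each was found under 1 identifier. RNA was measured at E18.5 in 4 libraries of female germ cells, which had been sorted from fetal ovaries on the surface antigen SSEA-1 and amplified with SMART-Seq2, a full-length method for little input. There were 2 libraries from fetuses of ICR mothers on a normal diet (ND) and 2 from fetuses of ICR mothers on a high-fat diet (HFD). The mothers of both groups had been fed their diet for 4 months and were mated with males on the normal diet. Each sample pooled oocytes of several fetuses. The labels call the cells primordial germ cells, and the study calls them fetal oocytes. The labels number the samples as replicates, and nothing in them says that the mothers or litters differed, so a p-value here measures the spread between these libraries only. The question was which of these genes were already transcribed above background at E18.5, in each library, and whether their levels differed with the mother's diet.

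The zona pellucida is the glycoprotein coat that a growing oocyte lays down around itself, and in the mouse it is built from ZP1, ZP2 and ZP3. GDF9 and BMP15 are growth factors of the TGF-beta family that oocytes secrete and that act on the granulosa cells around them. OOEP and NLRP5 belong to the subcortical maternal complex, a protein assembly under the egg surface, and PADI6 is needed for the lattices of the egg cytoplasm. ZAR1 binds maternal mRNA, and NPM2 is a nuclear chaperone of the egg. Maternal-effect genes are transcribed in the oocyte, and their products are needed by the embryo after fertilisation. As textbook background, most of these genes are known for strong transcription after birth, once follicles have formed and oocytes grow.

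The promoters of the members are shown because the zona genes are classic targets of FIGLA, an oocyte transcription factor that binds E-boxes (CANNTG, its own reverse complement) together with partners of the E-protein family. The RefSeq promoter table for GRCm38.p6 held 6 of the 10 genes, namely Zp3, Bmp15, Ooep, Nlrp5, Padi6 and Zar1. The stretches printed here are 5′ to 3′ on the gene's strand, end just before the first transcript start in RefSeq or GENCODE, and carry each E-box in capitals. Zp3 is shown for its high level in 1 HFD library, Nlrp5 for its high level in the other, and Padi6 and Bmp15 as genes that stayed under 50 CPM in all 4 libraries. Zp3 lies at chr5:135979855-135980098 on the plus strand, Nlrp5 at chr7:23385639-23385888 on the plus strand, Padi6 at chr4:140742644-140742893 on the minus strand and Bmp15 at chrX:6320725-6320974 on the minus strand.
Zp3: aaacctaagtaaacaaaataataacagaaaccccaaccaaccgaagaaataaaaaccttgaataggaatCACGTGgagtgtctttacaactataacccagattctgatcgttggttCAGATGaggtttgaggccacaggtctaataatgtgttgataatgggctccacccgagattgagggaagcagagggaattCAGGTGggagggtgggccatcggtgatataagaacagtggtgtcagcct
Nlrp5: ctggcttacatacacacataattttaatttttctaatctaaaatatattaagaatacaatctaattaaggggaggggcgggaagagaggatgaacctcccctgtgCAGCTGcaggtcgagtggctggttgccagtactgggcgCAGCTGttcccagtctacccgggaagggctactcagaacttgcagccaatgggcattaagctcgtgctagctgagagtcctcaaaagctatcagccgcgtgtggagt
Padi6: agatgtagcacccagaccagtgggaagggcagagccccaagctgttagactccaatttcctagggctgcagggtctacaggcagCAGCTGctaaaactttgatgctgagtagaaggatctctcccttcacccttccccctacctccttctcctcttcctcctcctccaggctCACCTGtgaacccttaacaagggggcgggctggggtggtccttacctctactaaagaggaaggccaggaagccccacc
Bmp15: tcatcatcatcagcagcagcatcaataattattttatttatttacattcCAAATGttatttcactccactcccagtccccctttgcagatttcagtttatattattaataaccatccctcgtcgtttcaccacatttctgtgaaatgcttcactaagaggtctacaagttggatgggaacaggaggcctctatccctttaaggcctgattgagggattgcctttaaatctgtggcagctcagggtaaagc
The Zp3 stretch held 3 E-boxes, those of Nlrp5 and Padi6 held 2 each, and that of Bmp15 held 1. The shorter stretches of Ooep (113 bases) and Zar1 (80 bases), not printed here, held 0. Over 32851 RefSeq windows, 66.2% held at least 1 E-box in the 250 bases before the start, 31.8% held at least 2 and 12.2% held at least 3. A match of these letters is a description and not a binding site.

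Total counts per library lay between 5723605 and 8223255, so that the floor of 3 counts lay between 0.365 and 0.524 CPM (each count divided by its library's total and scaled). The libraries of a diet were not copies of each other, with a chi-square per degree of freedom of 342 over genes between the ND libraries and 310 between the HFD libraries. The germ cell identity of the sort was checked on 10 germ cell markers, whose summed level was 2346 and 4133 CPM in ND replicates 1 and 2 and 1628 and 724 in HFD replicates 1 and 2. Of these markers, 9, 8, 6 and 5 were above background in the same order of libraries. Dazl, which encodes a germ cell RNA-binding protein, stood at 1733, 3770, 453 and 8.56 CPM, and Ddx4, a defining germ cell helicase gene, at 5.96, 12.4, 0.774 and 2.45 CPM. The markers did not move together, since 5 of the 10 had a log2 fold change above 0 and 5 below. Smc1b, a meiotic cohesin gene, had 156, 274, 234 and 639 CPM and was highest in HFD replicate 2, and Mael, a gene of transposon silencing, had 1.82, 6.14, 235 and 3.14 CPM. Dppa3 and Taf4b of this list are also in lists described further on. Dazl was above background in all 4 libraries, and Ddx4 in both ND libraries and in neither HFD library. Markers of other cells moved with single libraries. Summed over 8 genes, stromal markers ranged from 58.9 to 2676 CPM in ND and from 1600 to 7062 CPM in HFD, and 5, 3, 2 and 5 of them were above background. Summed over 10 genes, pregranulosa markers ranged from 36.4 to 413 CPM in ND and from 19.8 to 2087 CPM in HFD, with 2, 4, 0 and 3 above background, while the defining marker Foxl2 stayed between 2.17 and 5.94 CPM in all 4. The sums rest on a few genes, Amhr2 and Rspo1 in HFD replicate 2 (1113 and 920 CPM) and Fst in ND replicate 2 (383 CPM). Blood markers summed to 1972 CPM in ND replicate 1 and to between 1.02 and 4.54 CPM in the others, and 3 of 5 were above background in ND replicate 1 and 0 elsewhere. Endothelial markers (5 genes) summed to 17.9 to 698 CPM and macrophage markers (5 genes) to 9.85 to 39.3 CPM over the 4 libraries. The part of these cells in the members' values was not tested. In pools such as these, a smaller share of oocytes and less RNA of a gene per oocyte cannot be told apart.

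At E18.5, 9 of the 10 genes were above background in at least 1 library and 5 were above it in all 4. Of protein-coding genes, 42.7% were above it in at least 1 library. A gene was taken as above background when its reads per kilobase of exon exceeded the 99th percentile of 1135 olfactory receptor genes in the same library, between 7.44 and 12.5 reads per kilobase, and it had more than 3 counts. ND replicate 1 had 7 of the genes above this limit, ND replicate 2 had 8, HFD replicate 1 had 6 and HFD replicate 2 had 9. Among 21897 protein-coding genes the shares above it were 24.9%, 22.1%, 13.3% and 15.2% in the same order. Zp1, Zp3, Gdf9, Ooep and Padi6 were above the limit in all 4 libraries, as were 3.36% of protein-coding genes. This set depended on the limit. Only Zp3 and Gdf9 exceeded the highest olfactory receptor gene in all 4 libraries, and only Gdf9 reached 10 CPM in all 4. Bmp15 and Npm2 were above it in every library but HFD replicate 1. Zp2 exceeded it in both HFD libraries and in neither ND library, and Nlrp5 in replicate 2 of each diet. Zar1 did not exceed it in any library. With the 95th percentile in place of the 99th, Zp2 and Zar1 were also above the limit in both ND libraries, so that Zp2 was then above it in all 4. Both libraries of a diet were above the limit for 7 genes in ND and for 6 in HFD. Some of these calls were close, as Ooep in HFD replicate 1 stood at 1.01 times the limit, Bmp15 in HFD replicate 2 at 1.10 times and Zp2 in ND replicate 1 at 0.996 times.

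**Figure D1:**
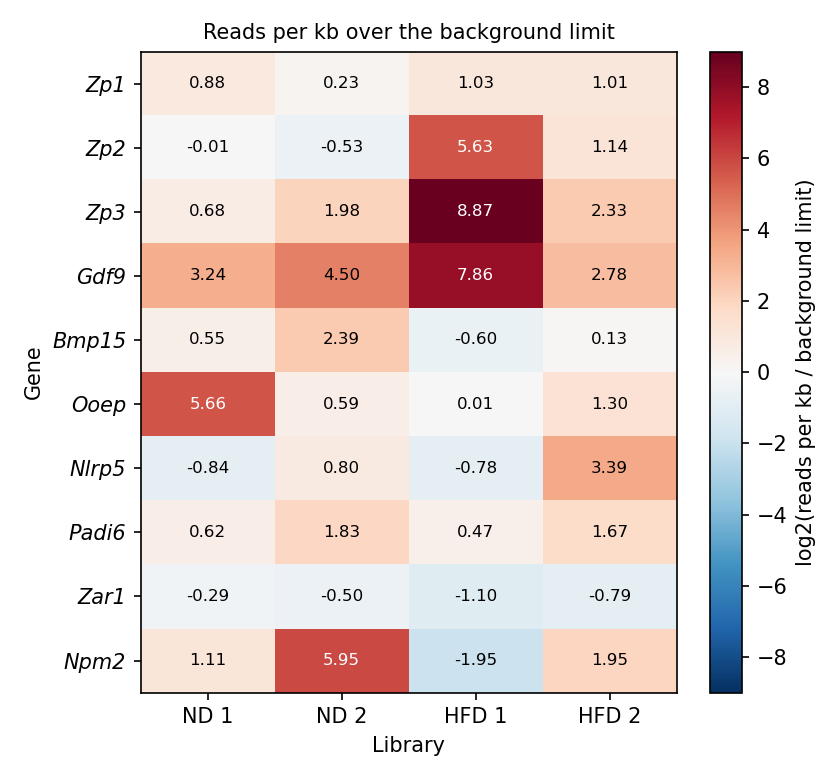
Reads per kilobase of exon over the background limit of the same library, as log2, for each of the 10 genes (rows) in each library (columns); values above 0 are above the limit. The highest ratio is that of Zp3 in HFD replicate 1, 467 times the limit, and Zar1 is below the limit in all 4 libraries.

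Levels per length put Gdf9 in second place among the 10 genes in each of the 4 libraries, behind a different gene each time. In ND replicate 1, Ooep led with 52.3 RPKM (CPM per kilobase of exon) and Gdf9 had 9.76. In ND replicate 2, Npm2 led with 71.0 RPKM and Gdf9 had 26.1. In HFD replicate 1, Zp3 led with 538 RPKM, Gdf9 had 267 and Zp2 had 57.1. In HFD replicate 2, Nlrp5 led with 22.9 RPKM, Gdf9 had 15.1 and Zp3 had 10.96. The leading gene of one library was thus near the limit in others, whereas Gdf9 lay between the 92.3rd and 97.5th percentile of protein-coding genes by CPM in all 4.

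**Figure D2:**
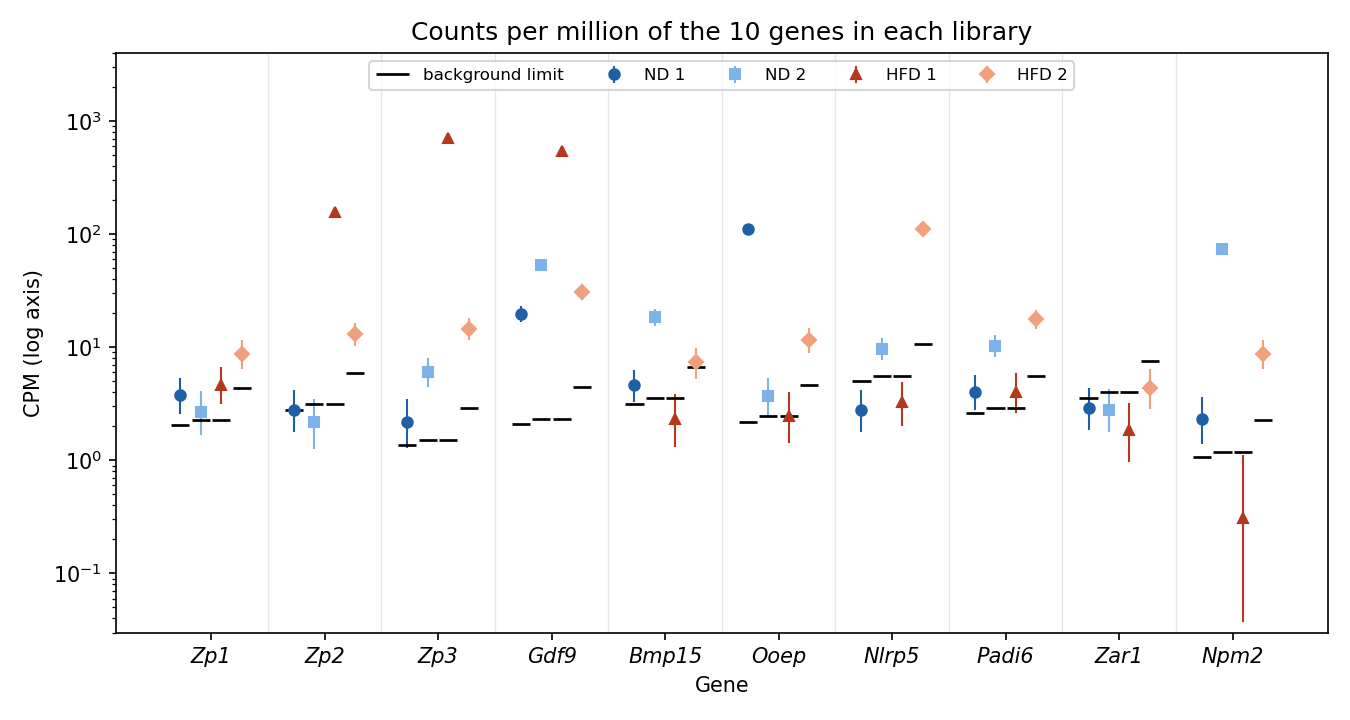
CPM (log axis) of each gene in each library; bars are exact 95% binomial intervals of the count, which cover counting error only, and black dashes are the background limit of that library converted to CPM for that gene. Zp2, Zp3 and Gdf9 stand highest in HFD replicate 1, Ooep in ND replicate 1, Npm2 in ND replicate 2 and Nlrp5 in HFD replicate 2.

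The zona genes had higher CPM in both HFD libraries than in both ND libraries, and HFD replicate 1 carried most of the difference for Zp2 and Zp3. Zp3, the gene of a main structural protein of the zona, lies on chromosome 5 (135980099 to 135988624, GRCm38) and had 18 and 47 counts in ND replicates 1 and 2, 4594 in HFD replicate 1 and 83 in HFD replicate 2. In CPM these were 2.19, 6.01, 711 and 14.5, with a mean of 4.10 ± 2.70 for ND (SD, n = 2) and of 363 ± 493 for HFD (SD, n = 2). The HFD libraries thus differed 49.1-fold from each other, and the HFD standard deviation exceeded the HFD mean. Zp2, whose protein binds sperm, lies on chromosome 7 (120126772 to 120145291) and had 23 and 17 counts in ND, 1004 in HFD replicate 1 and 75 in HFD replicate 2. Its CPM were 2.80 and 2.18 in ND and 155 and 13.1 in HFD. Both ND values were under the limit at the 99th percentile and above it at the 95th, and the HFD values differed 11.9-fold from each other. Zp1, whose protein cross-links zona filaments, lies on chromosome 19 (10914287 to 10920632) and showed no such peak, with 31 and 21 counts in ND and 30 and 50 in HFD. Its CPM were 3.77, 2.69, 4.65 and 8.74, between 1.18 and 2.04 times the limit. Even in HFD replicate 1, where Zp3 reached 3472 reads per kilobase and Zp2 reached 369, Zp1 stayed at 15.1.

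The fitted log2 fold change (HFD over ND, edgeR) was 6.91 for Zp3 (standard error 2.80, adjusted p = 0.406), 5.51 for Zp2 (standard error 1.90, adjusted p = 0.406) and 0.93 for Zp1 (standard error 0.40, adjusted p = 0.406). None passed an adjusted p of 0.05. Without HFD replicate 1 the value became 1.06 for Zp3 and 1.67 for Zp2, and that of Zp1 became 0.71. HFD replicate 1 therefore decided the size for Zp3 and Zp2. The sign could hardly turn, because both HFD values exceeded both ND values for these genes. In HFD replicate 1, 2 of 8 stromal markers (summed 1600 CPM) and 2 of 5 endothelial markers (summed 698 CPM) were above background, and 0 of 10 pregranulosa markers. Most of these sums came from Col1a1 (939 CPM), Col1a2 (650 CPM) and Kdr (681 CPM). The endothelial markers Cdh5, Tie1 and Esam stood at 1.55, 2.63 and 3.10 CPM there. The part of these cells in the zona values was not tested.

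Of the growth factor genes, Gdf9 was well above background in every library and Bmp15 was low. Gdf9, on chromosome 11 (53431023 to 53437904), had 163 and 415 counts in ND and 3507 and 175 in HFD. In CPM it stood at 19.8 and 53.1 in ND and at 543 and 30.6 in HFD, so that HFD replicate 2 lay between the ND libraries and the groups overlapped. Its lowest value was 6.89 times the background limit. edgeR put Gdf9 at 3.40 ± 2.19 (log2, HFD over ND, ± standard error, adjusted p = 0.546), a value that changed sign, to -1.01, without HFD replicate 1. Bmp15, on the X chromosome (6314107 to 6320721), had 38 and 144 counts in ND and 15 and 42 in HFD. Its CPM were 4.62 and 18.4 in ND and 2.32 and 7.34 in HFD, and the groups overlapped. edgeR put Bmp15 at -1.54 ± 0.85 (log2, HFD over ND, ± standard error, adjusted p = 0.461), a value that became -0.21 without ND replicate 2. In every library Bmp15 was the lower of the pair, at 1.51 against 9.76 RPKM for Gdf9 in ND replicate 1 and at 0.759 against 267 in HFD replicate 1.

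Among the maternal-effect genes, Ooep, Nlrp5 and Npm2 each stood high in 1 library, and it was a different library each time. Ooep, on chromosome 9 (78376109 to 78378725), had 919 and 29 counts in ND and 16 and 66 in HFD, or 112, 3.71, 2.48 and 11.5 CPM. ND replicate 1 was high, and the other ND library lay between the HFD libraries. ND replicate 1 was also the library with blood markers, at a summed 1972 CPM, and had stromal markers at 2676 CPM against 58.9 in the other ND library, with 5 of 8 above background. Stromal markers also summed to 1600 and 7062 CPM in HFD replicates 1 and 2, where Ooep stood at 2.48 and 11.5 CPM. The part of these cells in the Ooep value was not tested. edgeR put Ooep at -3.33 ± 1.70 (log2, HFD over ND, ± standard error, adjusted p = 0.429), a value that turned to 0.43 without ND replicate 1. Npm2, on chromosome 14 (70647302 to 70659244), had 19 and 575 counts in ND and 2 and 50 in HFD, or 2.31, 73.6, 0.31 and 8.74 CPM. The 2 counts of HFD replicate 1 are under the floor of 3 counts, and the exact 95% interval of that value was 0.0375 to 1.12 CPM. edgeR put Npm2 at -3.66 ± 2.11 (log2, HFD over ND, ± standard error, adjusted p = 0.481), a value that turned to 0.35 without ND replicate 2. In that library 4 of 10 pregranulosa markers (summed 413 CPM) and 1 of 5 endothelial markers (summed 68.5 CPM) were above background. Most of these sums came from Fst (383 CPM) and Pecam1 (53.9 CPM). The endothelial markers Cdh5 and Tie1 were lowest there, at 1.28 and 2.30 CPM. The part of these cells in the Npm2 value was not tested. Npm2 shares 39 exonic bases with Xpo7, which lies on the same strand and had 69, 49, 72 and 131 counts.

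Nlrp5, on chromosome 7 (23385889 to 23441922), had 23 and 76 counts in ND and 21 and 634 in HFD, or 2.80, 9.72, 3.25 and 111 CPM. HFD replicate 2 was high, whereas HFD replicate 1 lay between the ND libraries and was at background. edgeR put Nlrp5 at 2.59 ± 1.57 (log2, HFD over ND, ± standard error, adjusted p = 0.509), a value that turned to -0.47 without HFD replicate 2. The pseudogene Nlrp5-ps, with which reads could be shared, had 24, 38, 14 and 40 counts and did not show the high value of HFD replicate 2. That library also had the highest summed pregranulosa and stromal markers, at 2087 and 7062 CPM, whose part in the Nlrp5 value was not tested. Padi6, on chromosome 4 (140727355 to 140742643), had 33 and 81 counts in ND and 26 and 101 in HFD, or 4.01, 10.4, 4.03 and 17.6 CPM. The groups overlapped, and all 4 libraries were above background, at 1.38 to 3.55 times the limit. edgeR put Padi6 at 0.24 ± 0.76 (log2, HFD over ND, ± standard error, adjusted p = 0.949), and it was negative when ND replicate 1 or HFD replicate 2 was left out. Zar1, on chromosome 5 (72576806 to 72581254), had 24 and 22 counts in ND and 12 and 25 in HFD, or 2.92, 2.82, 1.86 and 4.37 CPM. These are between 0.466 and 0.817 times the limit, so that transcription of Zar1 was not detectable over background at this depth. edgeR put Zar1 at -0.07 ± 0.33 (log2, HFD over ND, ± standard error, adjusted p = 0.971), and 0.12 when only library totals were used for scaling.

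Between the diets, 0 of the 10 genes passed an adjusted p of 0.05 with a fold change over 1.5 in edgeR's quasi-likelihood test, as did 0% of the 19335 genes tested. At an unadjusted p under 0.05 there was 1 gene of the 10, Zp2, against 11.2% of all genes tested. DESeq2, run without a filter, returned an adjusted p for 6 of the 10 and called 4 of them, Zp2 (adjusted p = 0.000915) and Zp3 (adjusted p = 0.000208) as higher in HFD and Ooep (adjusted p = 0.0464) and Npm2 (adjusted p = 0.0419) as lower. With that tool 55.2% of the 4658 genes with an adjusted p were called. The lower HFD value exceeded the higher ND value in 3 of the 10 genes, Zp1, Zp2 and Zp3, against 13.9% of genes tested, and the reverse order was found in 0 of the 10, against 13.4%. After TMM scaling the same 3 genes stood higher in HFD, against 16.1% of genes tested, and 0 stood lower, against 17.8%. The median log2 fold change was 0.58 over the 10 genes and 0.03 over all genes tested, with 6 values above 0 and 4 below. With 2 libraries against 2, an exact permutation test of a single gene cannot give a p under 0.333.

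**Figure D3:**
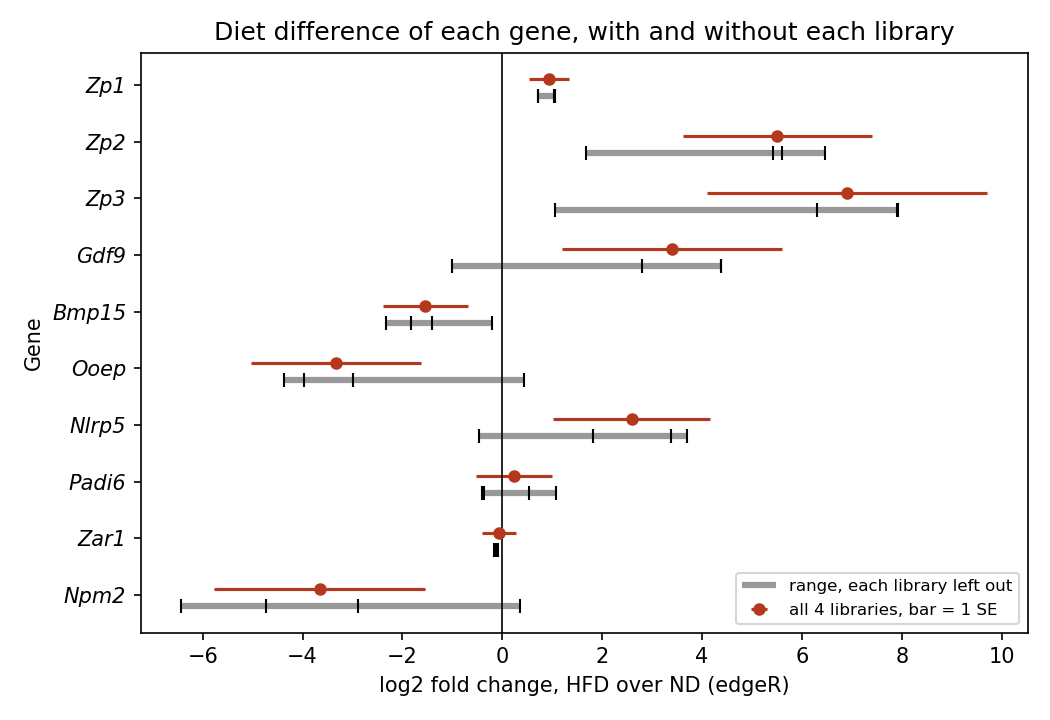
Log2 fold change (HFD over ND) of each gene from edgeR with all 4 libraries (points, bars of 1 standard error), and the range over the 4 fits that each leave out 1 library (grey bars, ticks for each fit). The range crosses 0 for Gdf9, Ooep, Nlrp5, Padi6 and Npm2. It stays above 0 for Zp1, Zp2 and Zp3, and below 0 for Bmp15 and Zar1. For the zona genes both HFD values exceed both ND values, so leaving out 1 library could hardly turn the sign.

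The share of a gene's CPM, summed over the 4 libraries, that fell in its highest library was 96.9% for Zp3, 89.6% for Zp2, 87.5% for Nlrp5, 86.6% for Npm2, 86.3% for Ooep and 84.0% for Gdf9. It was 56.3% for Bmp15, 48.9% for Padi6, 44.0% for Zp1 and 36.5% for Zar1. Over the 10 genes the median was 85.2%, and over the 19335 genes tested it was 45.4%. The genes tested were not matched to the 10 genes by level, and the part of level in this contrast was not tested. A share over 50% was found for 70.0% of the 10 and for 38.0% of genes tested, and a share over 90% for 1 of the 10 and for 9.70% of genes tested. Gdf9 differed from the other genes with a high share in that it also reached 50 CPM in a further library, ND replicate 2. Bmp15, Padi6, Zp1 and Zar1 did not reach 50 CPM in any library.

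Transcription factors that act on promoters of these genes were followed in a list of 10 genes. The oocyte factor genes Figla, Nobox and Lhx8 were highest in HFD replicate 1, the library in which Zp2, Zp3 and Gdf9 were highest. Single markers of other cells were also highest there, as the endothelial marker Kdr (681 CPM). The other endothelial markers, Pecam1, Cdh5, Tie1 and Esam, were highest in other libraries. No link between these factors and the members was tested. Figla had 0.973 and 1.66 CPM in ND and 611 and 51.7 in HFD. Nobox, a homeobox gene of early follicles, had 1.70 and 6.40 CPM in ND and 1278 and 567 in HFD. Lhx8, a LIM homeobox gene of oocytes, had 2.92 and 3.58 CPM in ND and 286 and 11.4 in HFD. Both HFD libraries exceeded both ND libraries in 6 of the 10 list genes, against 13.9% of genes tested. These 3 and Sohlh1 were among the 6, Sohlh1 with 19 counts in both HFD replicate 1 and ND replicate 2. Sohlh1, a bHLH factor gene of germ cells, was highest in HFD replicate 2 and had 1.58 and 2.43 CPM in ND and 2.94 and 1921 in HFD. Its partner gene Sohlh2 had 3.89 and 8.19 CPM in ND and 1.39 and 5.42 in HFD. Of the 9 list genes tested, 0 passed the adjusted p. An unadjusted p under 0.05 was found for 4 with higher values in HFD and for 0 with lower values. Over all genes tested, 11.2% had such a p in either direction. DESeq2 called the same number, 4, as higher, and gave 4 list genes no adjusted p. It called 55.2% of all genes that had one. The median log2 fold change of the list was 1.995, against 0.03 over all genes tested. These values over all genes also apply to the lists that follow.

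**Figure D4:**
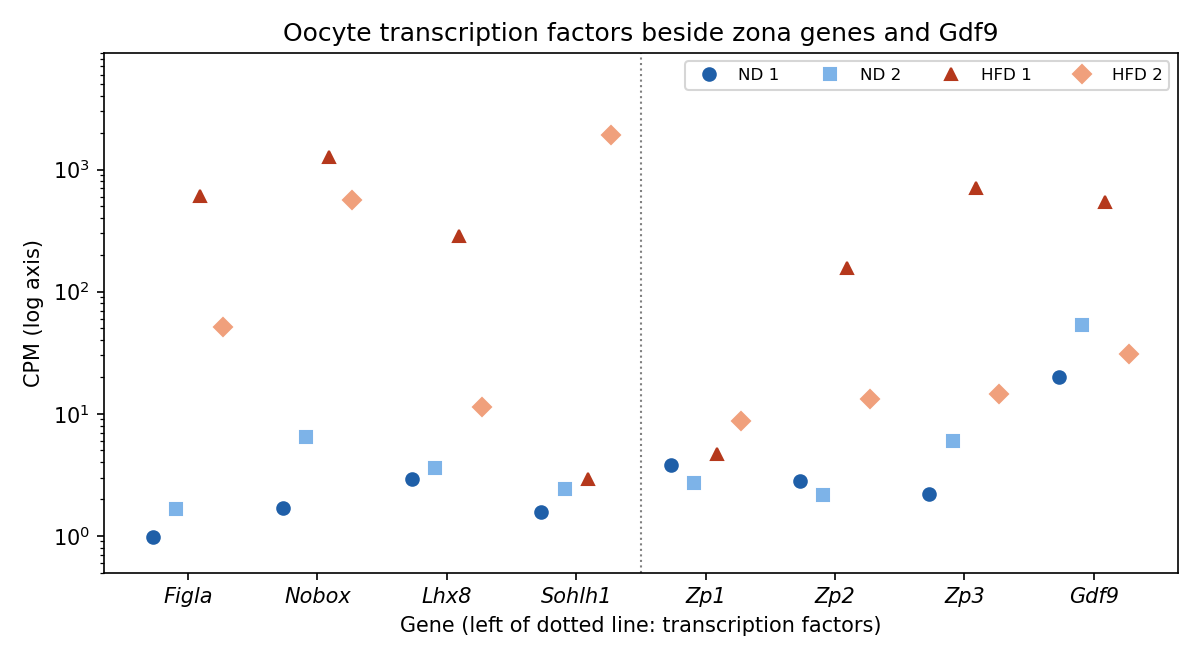
CPM (log axis) per library of 4 oocyte transcription factor genes (left of the dotted line) and of the zona genes and Gdf9 (right). Figla, Nobox, Lhx8, Zp2, Zp3 and Gdf9 have their highest value in HFD replicate 1, and Sohlh1 and Zp1 in HFD replicate 2.

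Other genes of the egg surface and of fertilisation (5 genes) were mostly low. Cd9, a tetraspanin gene needed for gamete fusion, stood at 589 CPM in ND replicate 1 and at 4.61, 2.17 and 5.59 CPM in ND replicate 2, HFD replicate 1 and HFD replicate 2. Astl, the gene of the protease that cleaves ZP2 after fertilisation, had 2.31 and 11.1 CPM in ND and 2.79 and 7.51 in HFD. Izumo1r, the sperm receptor gene Juno, had 0.730 and 0.256 CPM in ND and 0.929 and 5.07 in HFD, and was at background in all 4. Ovgp1, an oviduct glycoprotein gene, ranged from 1.24 to 4.37 CPM and was at background in all 4. Of the 5 genes, 3 were tested, 0 passed the adjusted p and DESeq2 called 1, Cd9, as lower in HFD. The median log2 fold change was -0.64.

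Of 8 further genes of the subcortical maternal complex and the NLRP family, 4, 6, 1 and 3 were above background in ND replicates 1 and 2 and HFD replicates 1 and 2. Zbed3, a gene of a complex component, was above background in all 4 and had 22.9 and 655 CPM in ND and 265 and 34.4 in HFD. Nlrp14 shared with Nlrp5 its highest library, HFD replicate 2, with 9.73 and 29.3 CPM in ND and 3.87 and 193 in HFD. Nlrp4f stood at 297 CPM in ND replicate 2 and at 1.82, 2.17 and 7.51 CPM in ND replicate 1, HFD replicate 1 and HFD replicate 2. Khdc3, whose product joins OOEP and NLRP5 in the complex, had 6.81 and 2.69 CPM in ND and 0.774 and 2.80 in HFD, and Nlrp9b had 4.74, 3.20, 0.929 and 4.89. NLRP genes are a family of close copies, so reads may be split between them. Of the 8 genes tested, 0 passed the adjusted p. At an unadjusted p under 0.05 there was 1, Khdc3, with a log2 fold change below 0, though its CPM overlapped between the diets. DESeq2 called 1, Nlrp4f, as lower. The median log2 fold change was -0.65.

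Among 15 other maternal factor genes, 5 were above background in all 4 libraries and 4 in none. Dppa3, whose product protects the maternal methylation pattern in the zygote, had 10.8 and 43.0 CPM in ND and 192 and 47.0 in HFD. Brwd1, a bromodomain gene needed in oocytes, had 24.3 and 208 CPM in ND and 657 and 18.0 in HFD. Ctcf, the gene of the chromatin insulator protein, had 6.32 and 7.17 CPM in ND and 149 and 4.89 in HFD. Oosp1, an oocyte-secreted protein gene, was above background in all 4 libraries with 3.04 and 17.8 CPM in ND and 1.39 and 6.46 in HFD. Fmn2, a formin gene of the meiotic spindle, ranged from 0.620 to 8.32 CPM and was at background in all 4. Of 13 genes tested, 0 passed the adjusted p and 0 had an unadjusted p under 0.05 in edgeR, while DESeq2 called 1, Ctcf, as higher in HFD. The median log2 fold change was -0.21.

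The receptors and signal transducers of GDF9 and BMP15 (10 genes) are known to act in granulosa cells, and 0 of them were above background in all 4 libraries. Bmpr1a, a type 1 receptor gene, had 8.15 and 7.29 CPM in ND and 943 and 4.89 in HFD. Smad3 had 4.13 and 6.53 CPM in ND and 1.24 and 1867 in HFD, and Smad2 had 7.05 and 4.22 CPM in ND and 3.41 and 1018 in HFD. Smad1 likewise was high only in HFD replicate 2, at 256 CPM against 4.34 to 5.47 CPM in the other libraries. That is the library with the highest summed pregranulosa and stromal markers. Bmpr1a was instead high in HFD replicate 1, where 0 of 10 pregranulosa markers were above background. The part of these cells in the values of the list was not tested. Smad4, the common partner of these transducers, had 5.11 and 6.78 CPM in ND and 1.39 and 4.89 in HFD. Of the 10 genes tested, 0 passed the adjusted p, at an unadjusted p under 0.05 there was 1, Smad4, with lower values in HFD, and DESeq2 called 5 as higher. The median log2 fold change was 3.73.

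For the members that reached 50 CPM, the protein-coding genes with the most similar pattern were found by Euclidean distance of log2 CPM over the 4 libraries, among 15806 genes. The nearest to Zp3 were Ell (distance 0.67) and Rab3d (0.78), and the nearest to Zp2 were Dnajb2 (0.67) and Grb7 (0.71). The nearest to Ooep were Mcmdc2 (0.46) and Hibch (0.61), and the nearest to Nlrp5 were Parl (0.42) and Ehd1 (0.67). Gdf9 had no neighbour closer than 4932438A13Rik (1.31) and Syne2 (1.35), and Npm2 none closer than Cyth2 (1.37) and Ppp2cb (1.48). With 4 libraries, such likeness mainly reflects which library a gene was high in.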

How the data were processed

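RNA was measured in 4 libraries, 2 per diet. Per the labels and the study's methods, reads were checked with FastQC and trimmed with Trim Galore, HISAT2 placed them on mm10, and featureCounts assigned them to genes. The values the authors deposited are raw counts, 1 table per library. The annotation release, the strand setting and the handling of reads with several alignments are not given in the sources used here, so reads of antisense neighbours and close copies may be mixed. Amplification without molecular identifiers means that intervals cover counting error only.

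Gene names, positions and union exon lengths came from GENCODE M21 (GRCm38, the assembly of mm10), which lacked 260 of 55401 identifiers. CPM are counts over the library total. Diets were compared with edgeR 4.0.16 in R 4.3.3 (TMM, filterByExpr, quasi-likelihood fit with legacy FALSE, Benjamini-Hochberg over 19335 genes, all 10 members included), at an adjusted p under 0.05 and a fold change over 1.5. Standard errors were obtained by dividing the absolute fold change (log2) by the root of the F statistic. Alternatives were DESeq2 1.42.0, limma-voom (limma 3.58.1), the legacy fit, other normalizations and filters, a replicate block, other background limits, and each library left out. The functions were run on simulated data with 200 genes changed 8-fold and replicates set to differ less than these libraries do. That run cannot show how the tests behave on these libraries. The authors' test was DESeq2 at the same limits.

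The members, lists and tests were chosen with earlier results of these data known. Named from each of the 5 lists of oocyte genes and partners were the 3 genes with the highest CPM in a library and up to 2 more with the smallest p, and, for each member over 50 CPM, the 2 genes nearest to it over the 4 libraries (log2 CPM, prior count 2). Single cell type markers were named after their values were seen.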

Additional observations from a re-analysis of the deposited data

How the results depend on the processing

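The count of members called between the diets, 0, was 4 with DESeq2 on all genes and 3 with DESeq2 on the filterByExpr genes, and 0 under every other setting run. The count over all genes, 0, was 2569 and 2291 with these and 34 with edgeR's legacy fit. With the replicate number as a block, 0 genes and 0 members were called. Deviations of replicates with the same number correlated at 0.01. This value cannot show whether equal numbers shared a day or batch, because each diet had only 2 libraries. The labels do not say. Leaving out 1 library turned the direction of Gdf9 (log2 fold changes from -1.01 to 4.39), Ooep (-4.36 to 0.43), Nlrp5 (-0.47 to 3.70), Padi6 (-0.41 to 1.07) and Npm2 (-6.43 to 0.35). Padi6 was also turned by limma-voom (-0.14) and Zar1 by scaling on library totals only (0.12), which moved the median of all genes from 0.03 to 0.21. The cause was not tested. At a limit of 10 CPM, 2, 4 and 3 members were above background in ND replicates 1 and 2 and HFD replicate 1, and above the highest olfactory receptor gene there were 3 in HFD replicate 1. Other limits kept the counts within 1.5 times of those reported.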

Other observations

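Genes within 10 kb of the members were looked at after the counts had been seen, and those named here were picked for their values. Dppa5a, a KH-domain gene of pluripotent and germ cells, lies 7932 bases from Ooep on the same strand and, like Ooep, was highest in ND replicate 1, with 3731 counts against 24, 2 and 59 in ND replicate 2, HFD replicate 1 and HFD replicate 2. Aff4, a transcription elongation gene 9193 bases from Gdf9 on the same strand, reached 915 counts in HFD replicate 1 against 60 to 68 elsewhere, and so was highest in the library where Gdf9 was highest. Uqcrq, a respiratory chain gene 192 bases from Gdf9 on the other strand with no shared exon, showed 25, 28746, 2380 and 10974 counts (ND, then HFD, in order of replicate), and was highest in ND replicate 2. Dtx2, 6176 bases from Zp3 on the same strand, had 196, 104, 12 and 60 counts, and was lowest where Zp3 was highest. Rcc2, a chromosome condensation gene 4135 bases from Padi6 on the other strand, had 49, 79, 431 and 65 counts, and was highest in HFD replicate 1, where Padi6 had 26. No likeness between neighbours was tested.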
